A study of Prunus persica with 21 samples.

Results

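PpPEPR1a (PRUPE_3G167800), PpPEPR1b (PRUPE_3G167900) and PpFLS2 (PRUPE_3G304400) are 3 receptor genes of peach (Prunus persica), taken by their identifiers from a count table of 27107 genes. All 3 passed the filter on low counts, which kept 18586 genes for testing. RNA-Seq was performed on leaf blades of juvenile plants with the central vein cut out. The untreated group, t0, carries the word mock in its sample labels. The other groups were sprayed with the synthetic peptide PpPep1 at 100 nM or PpPep2 at 1000 nM and sampled 1, 24 or 48 h later, which gives 7 groups of 3 biological replicates. Since the doses differ, peptide and dose cannot be told apart. No water-sprayed group was sampled at 1, 24 or 48 h among the samples used here, so in these samples treatment and time since t0 cannot be told apart either. By RT-qPCR, the paper reports no significant change over these times in mock plants, for the genes it chose to check its RNA-Seq.

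PEPRs are leucine-rich repeat receptor kinases at the cell surface. In Arabidopsis they bind Peps, short peptides cut from the end of larger precursor proteins and released on damage, and FLS2 binds a stretch of bacterial flagellin. Both kinds of receptor pair with the coreceptor BAK1 and start pattern-triggered immunity, with calcium influx, MAP kinase activation and WRKY-driven transcription.

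The study's RT-qPCR primer list holds a pair named RLK, which was read here as the pair of PpPEPR1a. The pair was picked by its name, and its bases were not matched to a gene sequence. Primers of other receptor genes were not drawn from the list.
RLK_for: aggctagctcttgaatcttccg
RLK_rev: tccagcaactgtgtgtgtga
The forward primer has 22 bases and the reverse primer 20. All values that follow come from RNA-Seq.

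The headings of 9 of the 21 columns went against the study's own read statistics, while 12 columns matched the library they are headed as. The library barcodes written beside these 9 headings name the same groups as the headings, so both go against the read statistics. The columns headed p1t48 matched the libraries of PpPep2 1 h, those headed p2t1 matched PpPep2 24 h, and those headed p2t24 matched PpPep1 48 h, in 9 of 9 cases. The groups below are named by that match. Under the headings as deposited, what is given here for PpPep2 1 h is PpPep1 48 h, what is given for PpPep2 24 h is PpPep2 1 h, and what is given for PpPep1 48 h is PpPep2 24 h, for every level and every log2FC against t0. The comparisons between time points and peptides then take other columns, and their values under the headings are given for the receptor genes in the text or in the closing section. Total counts ran from 33231519 to 59317510 per library, and between 20339 and 20980 genes had at least 1 count. The 6 libraries at 48 h were run on flowcells that held none of the other libraries, and they are called the second series here. Effects of time and of this flowcell series at 48 h cannot be told apart. Among the first 15, all t0 and PpPep2 24 h (headed p2t1) libraries were run on one set of flowcells and all PpPep1 24 h libraries on another. PpPep1 1 h replicate 1 was run on the former set and replicates 2 and 3 on the latter. PpPep2 1 h (headed p1t48) replicate 1 was run on both sets and replicates 2 and 3 on the latter. Leaf markers could not be matched, since none of the identifiers is paired with a description in the reference list. The phloem gene PRUPE_8G030100 (PHLOEM PROTEIN 2-LIKE A1) had 345 to 790 counts in every library, so RNA of this vein marker was present in the blades.

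PpPEPR1a was expressed in untreated blades and rose 1 h after either peptide. Its level in the t0 libraries was 9.25, 6.79 and 9.90 CPM (counts relative to library size, after TMM scaling), from 332 to 445 counts. The paper states that neither PpPEPR1a nor PpPEPR1b was detectable in blades before treatment, by its RNA-Seq and RT-qPCR. That differs from the t0 counts here, which were 54 to 84 for PpPEPR1b. At 1 h after PpPep1 it was 22.4, 19.8 and 22.4 CPM. At 1 h after PpPep2 (columns headed p1t48) it was 26.1, 20.7 and 27.1 CPM. Every treated library at 1 h lay above every t0 library, as was the case for 21% of all genes tested after PpPep1 and 17.7% after PpPep2. In this bulk tissue, a change in the share of cells that express a gene and a change in RNA per cell cannot be told apart. RSEM shares reads between similar transcripts, so the split of reads between PpPEPR1a and its paralog PpPEPR1b is an estimate.

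The log2 fold change (log2FC) of PpPEPR1a was 1.32 at 1 h after PpPep1 (SE 0.17, adjusted p = 5.88e-06, edgeR quasi-likelihood test), a 2.49-fold rise. A gene was called where the adjusted p was under 0.01 and log2FC was above 1 or below -1. In this comparison 5.44% of all genes tested were called higher and 0.463% lower. After PpPep2 at 1 h (headed p1t48) its log2FC was 1.51 (SE 0.17, adjusted p = 7.67e-07, edgeR), a 2.85-fold rise, where 6.18% of genes were called higher and 0.479% lower. With flowcell as a term the PpPep1 value was 1.38 (SE 0.26, adjusted p = 0.00447, edgeR), and the PpPep2 value was 1.56 (SE 0.35, adjusted p = 0.0206, edgeR), which is no longer a call. One PpPep2 1 h library was run on both flowcell sets and is in effect dropped from that fit. The flowcell difference in the fit rests on PpPep1 1 h alone, with replicate 1 on one set and replicates 2 and 3 on the other. Under the headings as deposited the PpPep2 1 h group is the set headed p2t1, with a log2FC of 0.53 (adjusted p = 0.0622, edgeR), and the 1.51 belongs to PpPep1 48 h. The PpPep1 1 h columns matched their heading, and with the 12 matching columns alone the log2FC was 1.32 (adjusted p = 2.22e-05, edgeR).

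**Figure D1:**
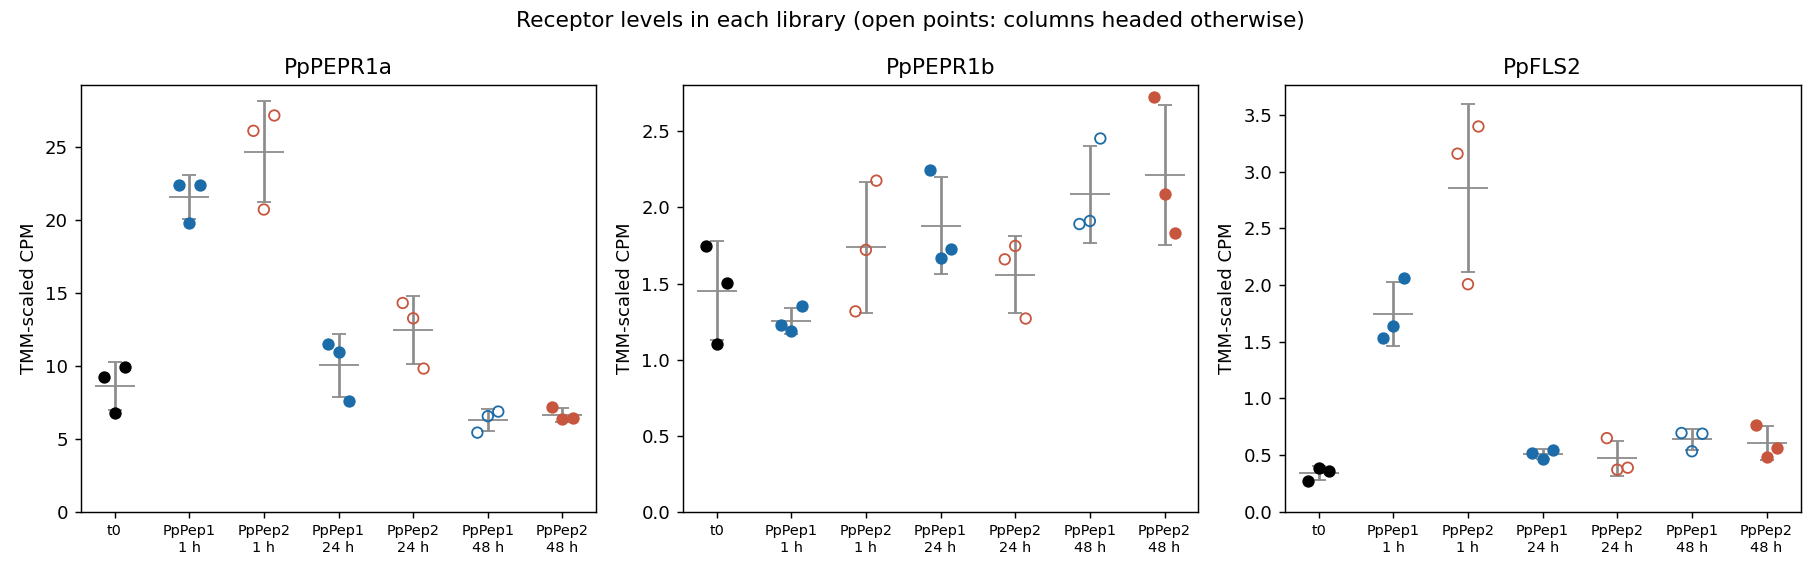
Level of each receptor gene in the 21 libraries, as TMM-scaled CPM on the vertical axis (1 scale per gene), by group on the horizontal axis. Points are libraries, horizontal bars are means and error bars are SD (n = 3), and open points are the 9 columns headed as another group. PpPEPR1a and PpFLS2 stand highest in both 1 h groups, between 19.8 and 27.1 CPM and between 1.54 and 3.40 CPM.

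PpPEPR1a came down again by 24 h. It was 11.5, 10.95 and 7.59 CPM at 24 h after PpPep1 and 14.3, 13.2 and 9.81 CPM at 24 h after PpPep2 (headed p2t1). All of these libraries lay below every 1 h library, as 22.5% of all genes did after PpPep1 and 21.3% after PpPep2, while both 24 h groups overlapped t0. From 1 h to 24 h after PpPep1 the log2FC was -1.11 (SE 0.17, adjusted p = 3.80e-05, edgeR), in a comparison where 5.97% of genes were called lower. Without PpPep1 24 h replicate 3 the log2FC was -0.95, inside the threshold on size. After PpPep2 the same step was -0.98 (SE 0.16, adjusted p = 9.94e-05, edgeR), which passes on p and stays just inside the threshold, with 6.33% of genes called lower. With flowcell as a term it was -1.03 (SE 0.35, adjusted p = 0.116, edgeR) and no longer passed on p. Leaving out single libraries moved that value between -1.09 and -0.84, and past the threshold without PpPep2 1 h replicate 2, PpPep2 24 h replicate 1 or PpPep2 24 h replicate 2. Under the headings, the columns headed p2t24 against those headed p2t1 gave -0.99 (adjusted p = 0.000264, edgeR).

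Against t0 the 24 h values of PpPEPR1a were not called. The log2FC was 0.21 after PpPep1 (SE 0.17, adjusted p = 0.434, edgeR; 95% interval -0.14 to 0.57), and between 0.06 without t0 replicate 2 and 0.38 without PpPep1 24 h replicate 3. It was 0.53 after PpPep2 (SE 0.17, adjusted p = 0.0622, edgeR; 95% interval 0.18 to 0.88), and under the headings that name belongs to columns with -0.46 (adjusted p = 0.0443, edgeR). Among all genes, 0.393% were called higher at 24 h after PpPep1 and 1.02% after PpPep2.

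At 48 h PpPEPR1a was at its lowest mean levels. The libraries held 5.42, 6.55 and 6.86 CPM after PpPep1 (headed p2t24) and 7.19, 6.37 and 6.39 CPM after PpPep2. Both groups overlapped the lowest t0 library. The log2FC against t0 was -0.46 (SE 0.17, adjusted p = 0.0443, edgeR) and -0.38 (SE 0.17, adjusted p = 0.103, edgeR), neither a call, where 2.35% and 1.18% of genes were called lower. Against 24 h the values were -0.67 after PpPep1 (SE 0.17, adjusted p = 0.00713, edgeR) and -0.91 after PpPep2 (SE 0.17, adjusted p = 0.000780, edgeR), past the threshold on p but not on size, in comparisons where 1.8% and 1.23% of genes were called lower. Without PpPep2 24 h replicate 3 the latter was -1.06 and was called. Under the headings the PpPep1 48 h columns are those with 1.51 against t0, and the step from 24 to 48 h turned to 1.3 after PpPep1 (adjusted p = 4.37e-06, edgeR) and to 0.08 after PpPep2 (adjusted p = 0.917, edgeR).

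PpPEPR1b, the second Pep receptor gene, was called in 0 of the 13 comparisons by edgeR and in 0 by DESeq2, and 5 had an unadjusted p under 0.05 in edgeR. It held 1.75, 1.10 and 1.51 CPM at t0, from 54 to 84 counts. It held 1.23, 1.19 and 1.35 CPM at 1 h after PpPep1 and 1.32, 1.72 and 2.18 CPM at 1 h after PpPep2 (headed p1t48). Both 1 h groups overlapped t0. The log2FC was -0.21 after PpPep1 (SE 0.22, adjusted p = 0.542, edgeR; 95% interval -0.67 to 0.25) and 0.25 after PpPep2 (SE 0.21, adjusted p = 0.448, edgeR; 95% interval -0.20 to 0.70). Both intervals end below the threshold of 1, and under the headings the PpPep2 1 h value was 0.11 (adjusted p = 0.843, edgeR).

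At the later times PpPEPR1b held 2.25, 1.67 and 1.73 CPM at 24 h after PpPep1, and 1.66, 1.75 and 1.27 CPM at 24 h after PpPep2 (headed p2t1). It held 1.89, 1.91 and 2.45 CPM at 48 h after PpPep1 (headed p2t24), and 2.72, 2.08 and 1.83 CPM at 48 h after PpPep2. Every 48 h library lay above every t0 library, as was the case for 27.1% and 23.0% of all genes after PpPep1 and PpPep2. The log2FC at 48 h was 0.52 after PpPep1 (SE 0.21, adjusted p = 0.0590, edgeR) and 0.59 after PpPep2 (SE 0.21, adjusted p = 0.0386, edgeR), and under the headings the former was 0.25 (adjusted p = 0.448, edgeR). In the order of group means, PpPep2 48 h, PpPep1 48 h, PpPep1 24 h, PpPep2 1 h, PpPep2 24 h, t0 and PpPep1 1 h, every neighbouring pair overlapped.

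The ratio of the 2 Pep receptor genes was higher in every 1 h library than in every t0 library. The log2 ratio of PpPEPR1a to PpPEPR1b was 2.38, 2.57 and 2.68 in the t0 libraries. It was 4.14, 4.01 and 4.01 at 1 h after PpPep1 and 4.26, 3.55 and 3.61 at 1 h after PpPep2 (headed p1t48). How often the ratio of other gene pairs separates in this way was not computed. The mean difference was 1.51 after PpPep1 and 1.27 after PpPep2. Each had p = 0.1 in an exact two-sided permutation test, and 0.12 after adjustment over the 6 tests. That p is the smallest that 3 against 3 libraries allow, so the test cannot decide whether the ratio changed. No gene lengths were at hand, so the ratio describes how the genes moved against each other and not which transcript was more abundant.

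At 48 h the ratio stood below t0, at 1.50, 1.75 and 1.47 after PpPep1 (headed p2t24) and 1.39, 1.59 and 1.78 after PpPep2. The differences were -0.97 and -0.96, each with p = 0.1 and an adjusted p of 0.12 in the exact permutation test. At 24 h the difference was -0.17 after PpPep1 (exact permutation p = 0.5, adjusted p = 0.5) and 0.41 after PpPep2 (exact permutation p = 0.1, adjusted p = 0.12; headed p2t1). Under the headings the differences read 0.41 for PpPep2 1 h, -0.97 for PpPep2 24 h and 1.27 for PpPep1 48 h.

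**Figure D2:**
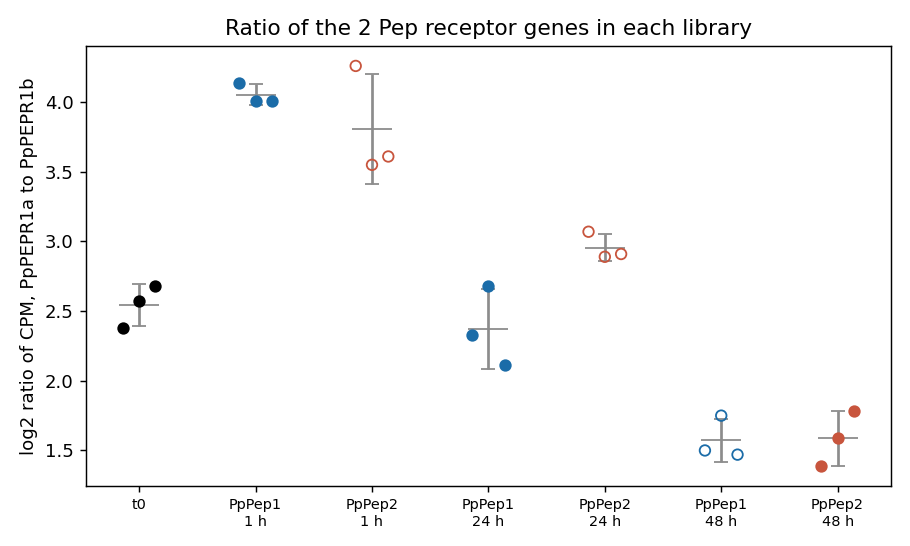
Log2 ratio of PpPEPR1a to PpPEPR1b CPM (vertical axis) in each library, by group (horizontal axis). Points are libraries, horizontal bars means and error bars SD (n = 3), with open points for the 9 columns headed as another group, and the ratio lies above 3.5 in all 1 h libraries and below 1.8 in all 48 h libraries.

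PpFLS2, the flagellin receptor gene, rose most in fold among the 3 at 1 h, from few reads. It had 13, 19 and 15 counts in the t0 libraries, or 0.270, 0.388 and 0.358 CPM. At 1 h after PpPep1 it had 60, 69 and 81 counts, or 1.54, 1.64 and 2.06 CPM. After PpPep2 (headed p1t48) it had 144, 91 and 125 counts, or 3.16, 2.01 and 3.40 CPM. Every 1 h library lay above every t0 library, a pattern shared by 21% (PpPep1) and 17.7% (PpPep2) of all genes. The log2FC was 2.36 after PpPep1 (SE 0.27, adjusted p = 9.12e-07, edgeR), or 5.12-fold, and 3.06 after PpPep2 (SE 0.26, adjusted p = 1.40e-08, edgeR), or 8.35-fold. With flowcell as a term they were 2.17 (adjusted p = 0.00137, edgeR) and 2.71 (adjusted p = 0.00246, edgeR). Under the headings PpPep2 1 h gave 0.48 (adjusted p = 0.387, edgeR), and the 3.06 belongs to PpPep1 48 h.

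By 24 h PpFLS2 had come down. It was 0.515, 0.466 and 0.547 CPM after PpPep1 and 0.650, 0.372 and 0.389 CPM after PpPep2 (headed p2t1). Neither group reached the 1 h range. All 24 h libraries lay below every 1 h library for 22.5% of all genes tested after PpPep1 and 21.3% after PpPep2. From 1 h to 24 h the log2FC of PpFLS2 was -1.77 after PpPep1 (SE 0.25, adjusted p = 1.76e-05, edgeR), where 5.97% of genes were called lower. After PpPep2 it was -2.58 (SE 0.24, adjusted p = 6.43e-08, edgeR), where 6.33% of genes were called lower. Under the headings the PpPep2 step read 0.43 (adjusted p = 0.255, edgeR). Against t0 the 24 h log2FC was 0.59 after PpPep1 (SE 0.30, adjusted p = 0.197, edgeR) and 0.48 after PpPep2 (SE 0.29, adjusted p = 0.387, edgeR), and the latter group overlapped t0. Without PpPep2 24 h replicate 1 the latter was 0.17, and under the headings it read 0.91 (adjusted p = 0.0198, edgeR). The PpPep1 24 h libraries lay above t0, as did those of 16% of all genes.

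At 48 h PpFLS2 was 0.695, 0.534 and 0.689 CPM after PpPep1 (headed p2t24) and 0.770, 0.480 and 0.563 CPM after PpPep2. All 6 libraries lay above the t0 libraries, as did those of 27.1% and 23.0% of all genes after PpPep1 and PpPep2. The log2FC was 0.91 (SE 0.30, adjusted p = 0.0198, edgeR; 95% interval 0.29 to 1.53) and 0.80 (SE 0.29, adjusted p = 0.0442, edgeR; 95% interval 0.19 to 1.40), neither a call, where 2.17% and 1.42% of genes were called higher. Against 24 h it moved by 0.32 (adjusted p = 0.422, edgeR) and 0.32 (adjusted p = 0.440, edgeR). Under the headings PpPep1 48 h read 3.06 against t0 and 2.48 against 24 h (adjusted p = 1.34e-07, edgeR).

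**Figure D3:**
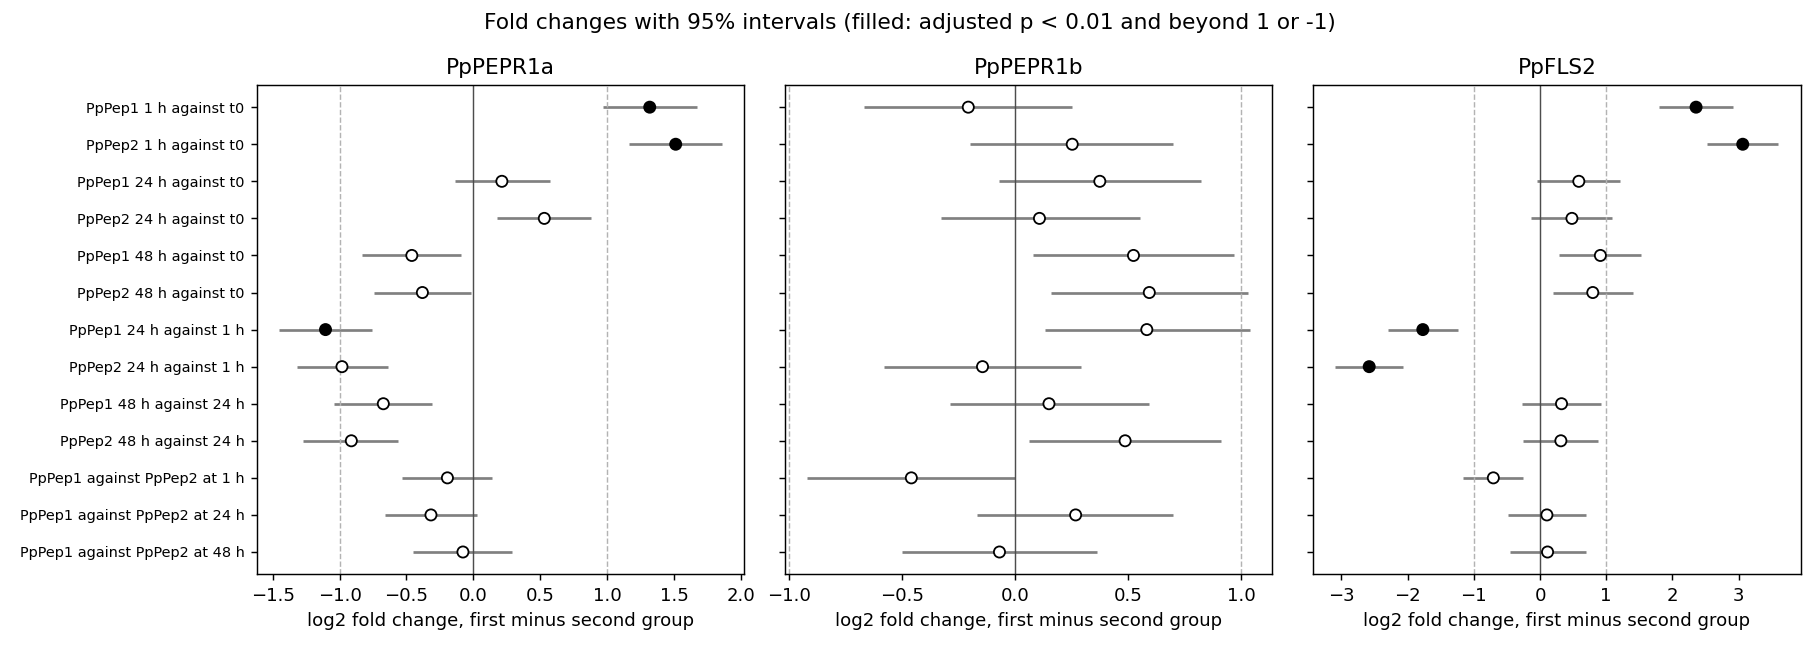
Log2FC of each receptor gene (horizontal axis, first group minus second, with 1 scale per gene) in the 13 comparisons (vertical axis), with groups named by the read statistics. Points are estimates, lines are 95% intervals, filled points were called and dashed lines mark 1 and -1. At 1 h against t0 the filled points are PpPEPR1a and PpFLS2 after both peptides. For 24 h against 1 h they are PpFLS2 after both peptides and PpPEPR1a after PpPep1.

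None of the 3 genes was called between the peptides at matched times, by edgeR or by DESeq2. Of the 9 tests (3 genes at 3 times), 2 had an unadjusted p under 0.05 in edgeR, and each p was adjusted over all genes. At 1 h PpPep1 minus PpPep2 was -0.19 for PpPEPR1a (adjusted p = 0.632, edgeR; 95% interval -0.53 to 0.14). It was -0.46 for PpPEPR1b (adjusted p = 0.376, edgeR; 95% interval -0.92 to 0.00). For PpFLS2 it was -0.71 (SE 0.22, adjusted p = 0.181, edgeR; 95% interval -1.16 to -0.25), where the highest PpPep1 library (2.06 CPM) just passed the lowest PpPep2 library (2.01 CPM). Over all genes 0.0161% were called at 1 h.

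At 24 h the differences were -0.32, 0.27 and 0.10 for PpPEPR1a, PpPEPR1b and PpFLS2 (adjusted p = 0.382, 0.596 and 0.904, edgeR), with 0.0377% of all genes called. At 48 h they were -0.08, -0.07 and 0.11 (adjusted p = 0.917, 0.939 and 0.923, edgeR), with 0.00538% called. The 95% intervals at 48 h ran from -0.45 to 0.29, from -0.50 to 0.36 and from -0.46 to 0.69, so a difference of 1 lay outside each. Under the headings as deposited the 24 h differences were 0.67, -0.15 and -0.33, PpPEPR1a and PpPEPR1b had 0.79 and -0.31 at 1 h, and PpPEPR1b had -0.34 at 48 h. With the same headings PpFLS2 was called higher after PpPep1 at 1 h (1.87, adjusted p = 7.07e-06, edgeR) and at 48 h (2.26, adjusted p = 2.32e-07, edgeR), and PpPEPR1a at 48 h (1.89, adjusted p = 4.01e-08, edgeR).

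Around the receptors, 45 signalling genes that the study names by identifier were followed in 6 lists. The study chose these genes with these samples at hand, so their direction is not independent evidence. At 1 h after PpPep1, 32 of the 45 were called higher and 0 lower, with a median log2FC of 1.65 against -0.02 over all genes tested, of which 5.44% were called higher. After PpPep2 (headed p1t48), 31 were called higher and 0 lower, with a median of 1.86 against -0.03 and 6.18% of all genes called higher. WRKY44 was the 1 list gene lower at an unadjusted p under 0.05 in each comparison (edgeR). Its log2FC was -0.79 after PpPep1 (adjusted p = 1.15e-08, edgeR) and -0.73 after PpPep2 (adjusted p = 2.26e-08, edgeR). It thus passed on p and missed the call on size only, and DESeq2 called 0 lower. Under the headings the PpPep2 1 h count was 6, and the 31 and each gene's PpPep2 1 h value below are those of PpPep1 48 h.

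Receptor-like kinases and receptor-like proteins were called higher in 10 of 13 cases at 1 h after PpPep1 and in 9 of 13 after PpPep2. RLP52, a receptor-like protein, had the highest values, 4.17 and 4.32. BIR1, which in Arabidopsis binds BAK1 and restrains immune receptors, had 3.54 and 3.81. WAKL14, a wall-associated kinase-like gene, had the lowest, 0.41 and 0.47, and was not called. PpPEPR1a (1.32 and 1.51) and PpFLS2 (2.36 and 3.06) lay within the range of this list in both comparisons, and PpPEPR1b (-0.21 and 0.25) lay below its lowest member. Since the study chose the list with these samples at hand, this placement only describes the genes and is not independent evidence.

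Of the 3 receptor-like cytoplasmic kinases, which relay signals from such receptors, only PBL19 was called, with 1.76 after PpPep1 and 1.97 after PpPep2. PCRK1 had the lowest values, 0.46 and 0.30. In the MAP kinase cascade, MAPKKK18 (1.61 and 1.47) and MPK3 (1.56 and 1.51) were called, and MAPK kinase 5 (0.80 and 0.77) was not. Calcium signalling genes were called in 5 of 7 cases after each peptide. The calcium-dependent protein kinase gene CDPK11 led with 6.33 and 6.88, the glutamate receptor-like channel gene GLR2.7 followed with 5.62 and 6.20, and CML16 was lowest with 0.26 and 0.06.

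U-box ubiquitin ligases and protein phosphatases 2C hold regulators that in Arabidopsis dampen immune signalling. They were called in 8 of 12 cases after each peptide, from a PUB21 gene (PRUPE_1G336200) at 7.90 and 8.45 down to PUB2 at 0.34 after PpPep1 and PUB4 at 0.14 after PpPep2. WRKY transcription factors were called in 6 of 7 cases. WRKY33, a regulator of defense genes in Arabidopsis, had the highest values, 6.28 and 6.62, and WRKY44 the lowest, -0.79 and -0.73.

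**Figure D4:**
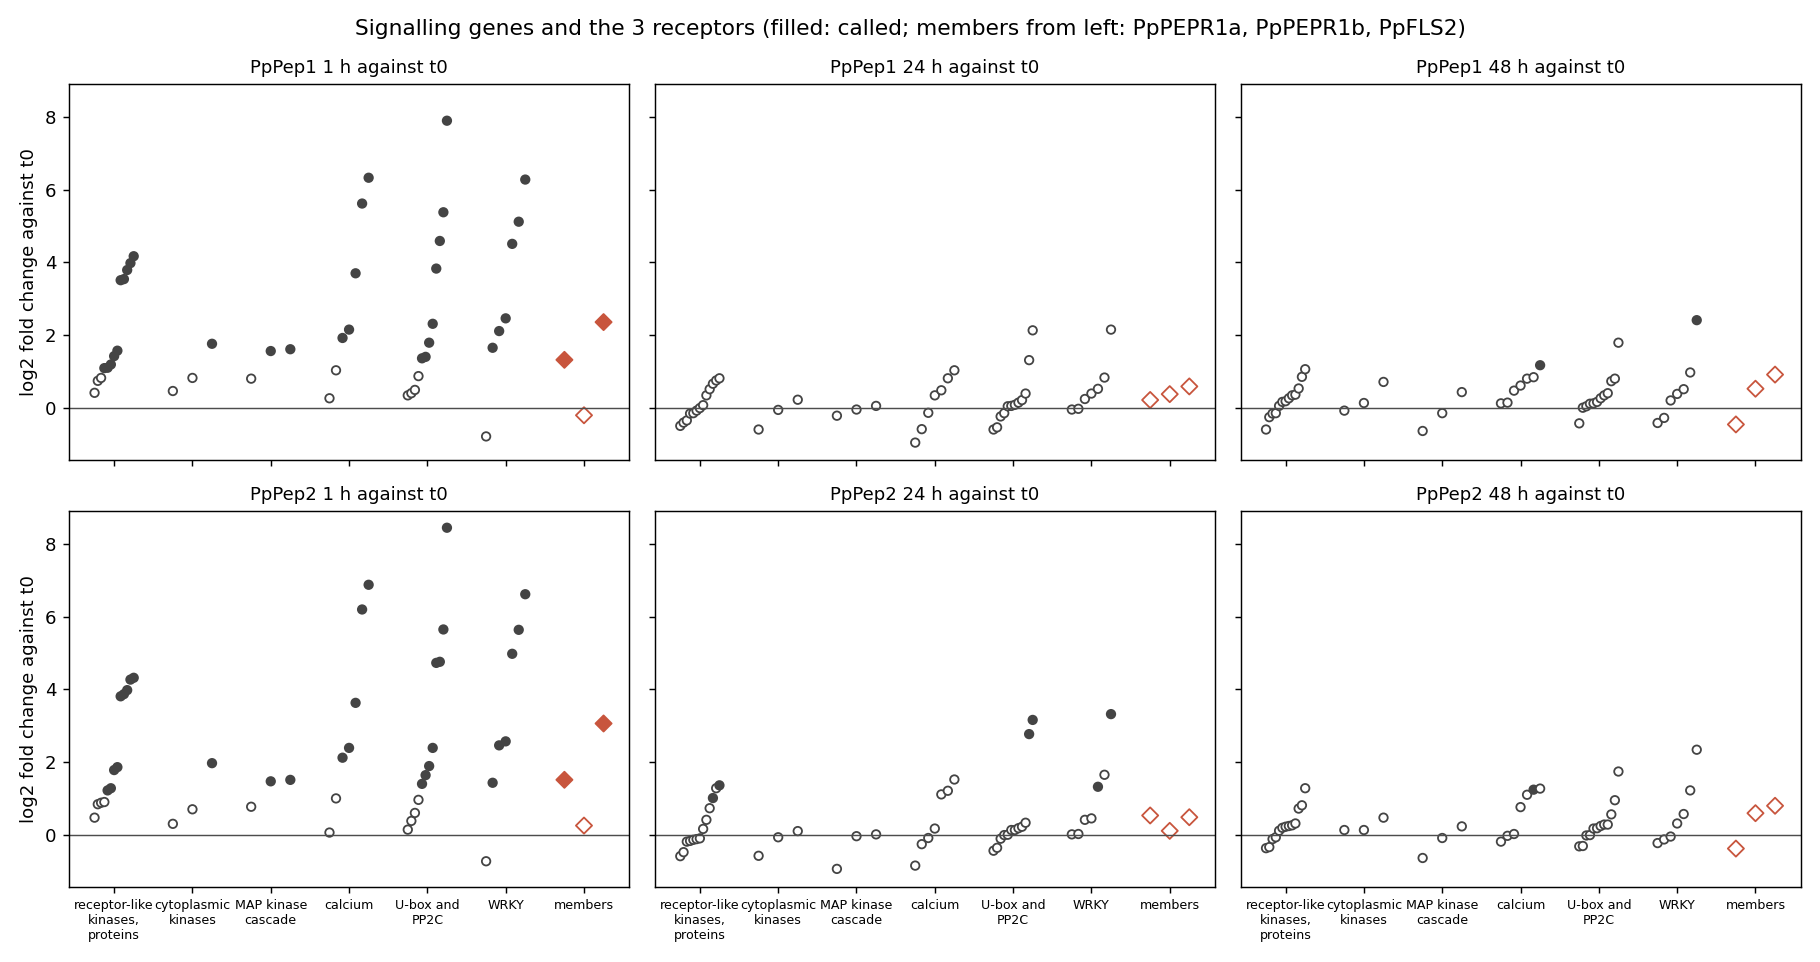
Log2FC against t0 (vertical axis) of the 45 signalling genes in 6 lists and of the 3 receptor genes (horizontal axis), for each peptide and time, with groups named by the read statistics. Circles are list genes, diamonds are PpPEPR1a, PpPEPR1b and PpFLS2 from left to right, and filled points were called, which most are at 1 h (32 and 31 of 45) and few are later.

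Later the lists came back toward t0 together with PpPEPR1a and PpFLS2. At 24 h after PpPep1, where 0.393% of all genes were called higher, 0 of 45 were called in edgeR and 0 in DESeq2, while 15 had an unadjusted p under 0.05 and 2 passed adjusted p alone. At 24 h after PpPep2 (headed p2t1) 6 were called higher, beside 1.02% of all genes and a count of 2 under the headings, namely BIR1 (1.36), RLP52 (1.01), the PUB21 gene PRUPE_1G336200 (3.16), PUB24 (2.77), WRKY53 (1.32) and WRKY55 (3.32). At 48 h KRP1 was called after PpPep1 (1.17; headed p2t24) and after PpPep2 (1.24), and WRKY55 was called after PpPep1 (2.41), beside 2.17% and 1.42% of all genes called higher. The medians of the 45 genes at 24 h were 0.05 and 0.10, and at 48 h 0.26 and 0.22. From 1 h to 24 h, 32 of the 45 were called lower after PpPep1 and 34 after PpPep2, beside 5.97% and 6.33% of all genes. Under the headings the count after PpPep2 was 3 lower and 2 higher.

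Across the 21 libraries the log2 CPM of PpPEPR1a and PpFLS2 had a Pearson r of 0.78, that of PpPEPR1a and PpPEPR1b -0.38 and that of PpPEPR1b and PpFLS2 -0.14. These describe libraries that share their group and series, and they carry no test. The genes most like PpPEPR1a were PRUPE_6G248400 and PRUPE_4G085800 (both r = 0.97), and those most like PpFLS2 were PRUPE_5G181000 and PRUPE_4G028200 (both r = 0.97). The most like PpPEPR1b were PRUPE_7G004700 (r = 0.78) and PRUPE_7G108900 (r = 0.77). None of the 5 genes nearest to each receptor gene has a name in the sources used here.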

How the data were processed

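The deposited table holds estimated counts per gene, which the authors made with STAR 2.5.3a and RSEM 1.3.0 from stranded poly-A libraries mapped to the Prunus persica NCBIv2 genome. The columns were read as whole numbers. For this report, edgeR 4.0.16 in R 4.3.3 was used with TMM scaling, filterByExpr and robust quasi-likelihood tests in one model of 7 groups, with Benjamini-Hochberg adjustment over 18586 genes. Log2 CPM used a prior count of 2. SE is the log2FC divided by the square root of F. DESeq2 1.42.0 was an alternative. Other alternatives were scaling, filters, flowcell, sample subsets, thresholds, headings and single libraries.

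Column headings were checked by the ratio of the total count to read pairs assigned to a single gene (0.95 to 0.99) and by the number of genes holding 25% of counts. A first check on mapped read pairs put no column in that window, and the measure and window were then taken from earlier work on these data. By these criteria 3 of the 12 matching columns also matched another library.

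Named genes were the 3 receptors, the 45 list genes with the highest and lowest value of each list, and the 5 genes nearest each receptor by Pearson r. Members, lists and the reading of the headings were chosen with earlier results of these data known. None of the 27107 identifiers matched the reference gene list, so no positions, lengths or leaf marker descriptions were used.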

Additional observations from a re-analysis of the deposited data

How the results depend on the processing

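With the column headings as deposited, 9 columns change their group name. For PpPEPR1a the log2FC against t0 then became 0.53 (PpPep2 1 h), -0.46 (PpPep2 24 h) and 1.51 (PpPep1 48 h), the step from 24 to 48 h 1.3 (PpPep1) and 0.08 (PpPep2), and PpPep1 minus PpPep2 0.79, 0.67 and 1.89 at 1, 24 and 48 h. For PpPEPR1b the changed signs were 0.42 (PpPep2, 24 h against 1 h), -0.12 (PpPep1, 48 h against 24 h) and -0.15 (between peptides at 24 h). For PpFLS2 the values were 0.48 (PpPep2 1 h), 3.06 (PpPep1 48 h), 0.43 (PpPep2, 24 h against 1 h), 2.48 and -0.11 (48 h against 24 h after PpPep1 and PpPep2), and 1.87, -0.33 and 2.26 between peptides. The list counts became 6 (PpPep2 1 h), 2 (PpPep2 24 h) and 31 (PpPep1 48 h), and the ratio differences 0.41, -0.97 and 1.27. The fit is the same and only the names move.

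Among the other settings, flowcell as a term took PpPEPR1a at PpPep2 1 h to 1.56 (adjusted p = 0.0206, edgeR), below the call, and turned PpFLS2 between peptides at 24 h to -0.17. With no threshold on log2FC, PpPEPR1a was called at -0.98 (PpPep2, 24 h against 1 h), -0.67 and -0.91 (48 h against 24 h), and the list genes that passed were 2 at 24 h after PpPep1, 9 at 48 h after PpPep1 and 7 at 48 h after PpPep2. The list count at PpPep1 48 h was 1 with RLE scaling, with no filter on low counts and with the stricter filter. At PpPep2 48 h it was 5 with DESeq2, 2 with the replicate block and 2 in the 12 matching columns.

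Leaving out single libraries gave ranges of -1.22 to -0.95 (PpPEPR1a, PpPep1 24 h against 1 h), -1.09 to -0.84 (PpPep2 24 h against 1 h), -1.06 to -0.80 (PpPep2 48 h against 24 h) and -0.15 to 0.02 (between peptides at 48 h). Sign changes without a call came in PpPEPR1b (-0.06 to 0.27 at PpPep2 24 h, -0.33 to 0.04 for PpPep2 24 h against 1 h, -0.20 to 0.09 between peptides at 48 h) and PpFLS2 (-0.04 to 0.42 and -0.03 to 0.29 between peptides at 24 and 48 h). The calls of PpPEPR1a and PpFLS2 at 1 h held without each library.

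Replicate numbers did not clearly pair the samples, apart from a weak match between the 2 peptides at 1 h. The deviations of same-numbered libraries correlated between -0.25 and 0.25, in 0 of 13 comparisons with every pair above 0.1, though at 1 h all 6 libraries of the 2 peptides correlated best with their own number. With the replicate block PpPEPR1a stood at 1.32 and 1.51 and PpFLS2 at 2.35 and 3.03 at 1 h, no call of the 3 genes changed, and the calls over all genes at 1 h went from 1098 to 1101 and from 1237 to 1230. PpFLS2 rests on 13 to 19 counts at t0. The causes of these shifts were not tested.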
